A study of Mus musculus with 4 samples.

Results

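The genes described here are 9 transcription factors that pattern the forebrain and midbrain or maintain neural progenitors: Emx1, Emx2, Otx1, Otx2, Pax6, Olig2, Sox2, En1 and En2. They were chosen by symbol, with earlier results of these data known, and make up 9 of the 22180 genes measured. The data come from 4 Affymetrix Mouse Gene 2.0 ST arrays of mouse embryos of mixed C57BL/6J x FVB/N background, with 1 array for each of 4 groups. The groups were Tbx1 knockout (KO) palatal shelves at embryonic day 13.5 (E13.5), wild-type palatal shelves at E13.5, Tbx1 KO head at E12.5 and wild-type head at E12.5. The palatal shelves are the outgrowths of the upper jaw that form the secondary palate, and Tbx1 encodes a T-box transcription factor of the pharyngeal apparatus. The labels give neither the knockout allele nor whether several embryos were pooled. The question asked of these factors was whether their levels differed without Tbx1 in either tissue, and how far the tissues themselves differed.

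Otx1 and Otx2 are homeodomain factors, and Otx2 is needed for the formation of the anterior head. Emx1 and Emx2 pattern the dorsal telencephalon, and Emx2 also acts in the olfactory epithelium. Pax6 is the paired-box factor of eye, olfactory placode and cortical progenitors, Sox2 keeps neural progenitors and many placodal and oral epithelial cells undifferentiated, and Olig2 is a basic helix-loop-helix factor of ventral neural progenitors and the oligodendrocyte lineage. En1 and En2 mark the midbrain and the boundary to the hindbrain. Several of these factors are therefore shared between brain and nose.

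Values are log2 expression after RMA, on which a difference of 1 is a 2-fold change. Each factor was read by 1 transcript cluster. A gene entered a comparison of 2 arrays when the higher of them reached 6.16, the median of all measured genes. Since each group holds 1 array, a KO minus wild-type difference within a tissue has neither a replicate check nor a p-value, and precision is limited by how few arrays there are. As a scale, clusters of 1 gene disagreed in their KO minus wild-type difference by an SD per cluster of 0.226 in the shelves (233 genes) and 0.176 in the head (232 genes), a measure of probe-set disagreement and not of embryos. Tbx1 itself was at 6.18 in KO shelves, against 7.39 in wild-type shelves, and at 6.25 in KO head, against 6.83 in wild-type head. Sex-linked levels differed with genotype in the head, where Uty was at 8.31 in the KO and 6.91 in the wild type, and their part in the head results was not tested. The tissue labels were checked in an additive limma fit of genotype and tissue, after Benjamini-Hochberg adjustment. Higher in the shelves than in the head were 10 of 14 palatal mesenchyme markers and 12 of 12 oral epithelium markers, beside 13% of all genes. Of the neuron markers 19 of 19 were lower, beside 14.9% of all genes. Only 9 of the 12 oral epithelium markers entered in the head, and 18 of the 19 neuron markers in the shelves. The rest entered through the tissue where they were high, and the lists were chosen with earlier results of these data known.

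In the E13.5 palatal shelves, Emx2, Otx2 and Olig2 were lower in the KO array than in the wild-type array, while Otx1 and Sox2 differed little. Of the 9 factors, 5 entered this comparison. Because the factors were chosen with earlier results of these data known, the shares of all genes beside them are a description and not a test. Of these 5, 3 were at least 1.5-fold lower, where 1.34% of the 11449 genes that entered were, and 1 was at least 2-fold lower, where 0.472% were. Of the same 5, 0 were higher by 1.5-fold or by 2-fold, beside 1.91% and 0.463% of all genes. The median difference of the 5 was -0.88, beside a median of 0.021 over all genes, and 4 of 5 lay below 0, beside 44.8% of all genes. Emx2 entered through the wild-type array alone, and of the 4 factors above the limit on both arrays 2 were at least 1.5-fold lower, where 0.618% of the 10686 such genes were, and 0 at least 2-fold lower, with a median of -0.51. Shelves and head are bulk tissue, so fewer cells of a type and less RNA per cell cannot be told apart.

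**Figure D1:**
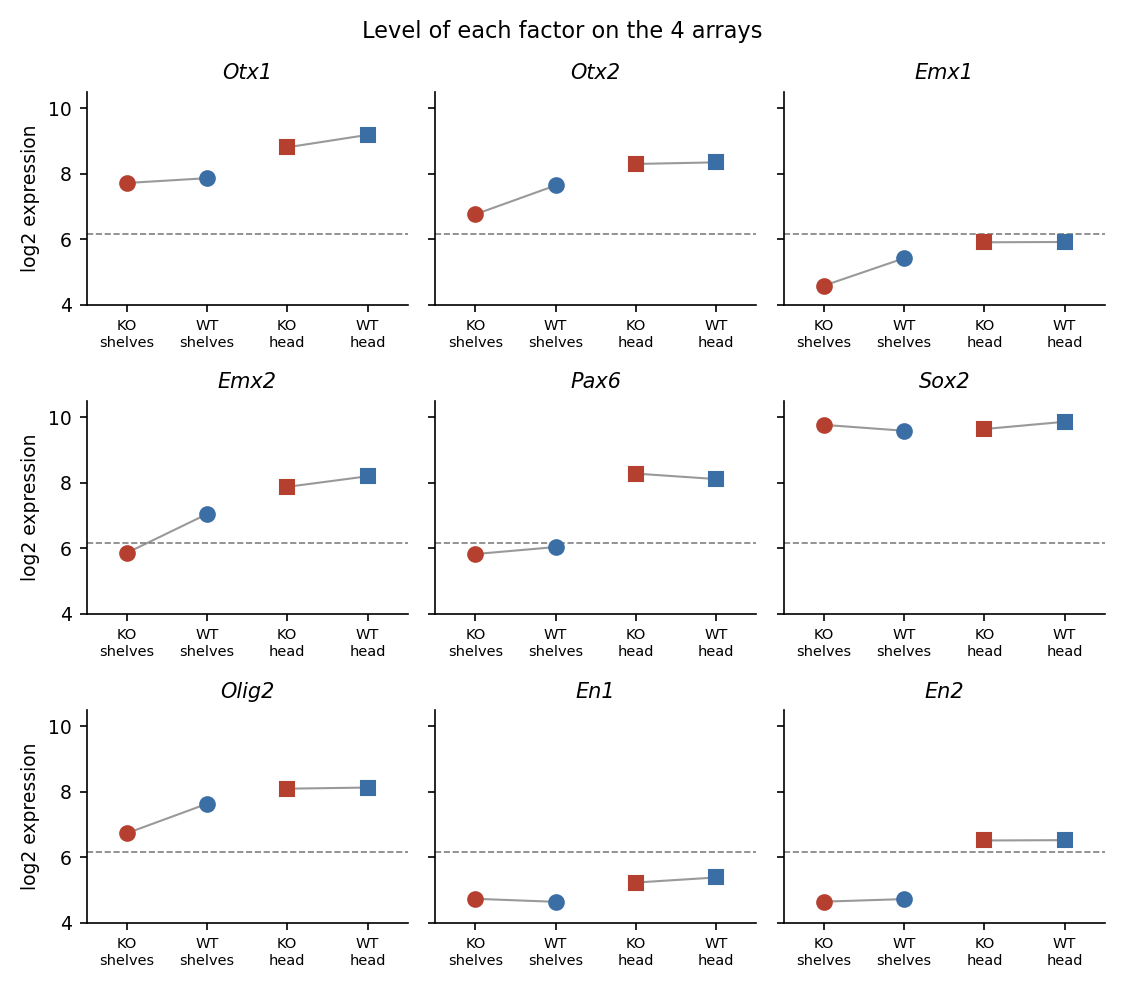
Log2 expression (y axis) of the 9 factors on the 4 arrays, with KO in red left of wild type in blue, shelves as circles and head as squares; each point is 1 array and the dashed line is the limit for entry, 6.16. All factors but Sox2 and En1 have their lowest level in the KO shelves, and Sox2 lies between 9.59 and 9.87 throughout.

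Emx2 had the largest difference of the 9 factors in the shelves. Its level was 5.86 in KO shelves, against 7.05 in wild-type shelves, and 7.88 in KO head, against 8.20 in wild-type head. The KO shelf array was the lowest of the 4, and the KO array was the lower one in both tissues. The difference in the shelves was -1.19, a 2.28-fold lower level, the 37th lowest of the 11449 genes that entered. Its level in KO shelves fell short of 6.16, where RMA compresses folds.

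Otx2 was at 6.76 in KO shelves, against 7.65 in wild-type shelves, and at 8.30 in KO head, against 8.35 in wild-type head. The KO and wild-type levels lay apart in the shelves and close together in the head. The difference in the shelves was -0.88, or 1.84-fold lower, the 68th lowest of all genes that entered.

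Olig2 had a similar profile. Its level was 6.73 in KO shelves, against 7.64 in wild-type shelves, and 8.10 in KO head, against 8.13 in wild-type head. The difference in the shelves was -0.90, or 1.87-fold lower, the 63rd lowest, and both arrays were above the limit for entry. Olig1, a related factor of the same lineage, was at 5.97 in KO shelves, below the limit, and 6.46 in wild-type shelves. The Olig1 difference of -0.49 fell short of 1.5-fold.

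The promoters of the 3 factors that were lower together are given from RefSeq (GRCm38.p6), to show which short motifs each holds, as 300 bases from 250 before to 50 after an annotated start, 5′ to 3′ on the gene's strand. Capitals mark matches, on either strand, to the homeodomain motif TAATTA or the OTX motif GGATTA. The homeodomain motif reads the same on both strands, and the motifs do not overlap here. Otx2 has 4 annotated starts, and the window with the most matches is given, since of the other 3 windows 1 held a single homeodomain match.
Emx2 (chr19:59458440-59458739, plus strand): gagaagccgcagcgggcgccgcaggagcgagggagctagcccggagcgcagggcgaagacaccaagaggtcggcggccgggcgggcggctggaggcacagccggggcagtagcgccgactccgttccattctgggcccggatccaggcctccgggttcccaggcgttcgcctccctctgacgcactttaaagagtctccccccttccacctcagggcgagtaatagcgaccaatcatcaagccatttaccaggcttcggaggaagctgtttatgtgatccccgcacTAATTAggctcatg
Otx2 (chr14:48665060-48665359, minus strand): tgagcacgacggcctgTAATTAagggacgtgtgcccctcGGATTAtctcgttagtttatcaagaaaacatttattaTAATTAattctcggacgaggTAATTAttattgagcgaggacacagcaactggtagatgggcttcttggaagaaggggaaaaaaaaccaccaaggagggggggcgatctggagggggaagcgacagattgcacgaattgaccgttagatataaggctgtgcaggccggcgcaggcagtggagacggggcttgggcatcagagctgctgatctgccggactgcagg
Olig2 (chr16:91225300-91225599, plus strand): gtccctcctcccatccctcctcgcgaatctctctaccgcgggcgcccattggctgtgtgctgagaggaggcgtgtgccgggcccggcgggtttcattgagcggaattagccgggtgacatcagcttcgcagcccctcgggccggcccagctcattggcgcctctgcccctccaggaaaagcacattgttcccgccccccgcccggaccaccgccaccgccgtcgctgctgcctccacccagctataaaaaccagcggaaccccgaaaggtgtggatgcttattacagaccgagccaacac
The Emx2 window held 1 homeodomain match, the Otx2 window 3 of them and 1 OTX match, and the Olig2 window held neither. Among all 32851 promoter windows, 5.29% held TAATTA and 7.06% held GGATTA. These are shares per window, whereas the Otx2 window was picked from 4 for its matches. Of the 9 factors, 7 had windows, 11 in all, and the T-box motif AGGTGTGA, present in 1.28% of all windows, was in 0 of them. The windows shown held 64.3% G and C for Emx2, 51.0% for Otx2 and 65.0% for Olig2, beside a median of 52.7%. The other Otx2 windows held 41.7%, 47.7% and 53.7%. A match describes letters and is not a bound site, and a window without one says nothing about the factor.

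Otx1 and Sox2, the other factors that entered in the shelves, were well above the limit on all 4 arrays. Otx1 was at 7.72 in KO shelves, against 7.87 in wild-type shelves, a difference of -0.15 that lay within the 5th to 95th percentile of all genes (-0.31 to 0.39). Sox2 was at 9.77 in KO shelves, against 9.59 in wild-type shelves, a difference of 0.18 inside the same range. The paralogues Otx1 and Otx2 thus had differences of -0.15 and -0.88 in the same pair of arrays. Whether probes of paralogous factors share signal was not tested.

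The other 4 factors were below the limit on both shelf arrays. Emx1, the paralogue of Emx2, was at 4.58 in KO shelves, against 5.42 in wild-type shelves, and at 5.91 in KO head, against 5.92 in wild-type head. Its difference of -0.84 in the shelves had the direction of Emx2. Of the 10731 genes below the limit on both shelf arrays, 2.42% were at least 1.5-fold lower. Pax6 was at 5.82 in KO shelves, against 6.04 in wild-type shelves. En1 was at 4.73 in KO shelves and 4.64 in wild-type shelves, and En2 at 4.65 in KO shelves and 4.72 in wild-type shelves. The KO minus wild-type differences of these 3 factors in the shelves lay between -0.21 and 0.092.

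**Figure D2:**
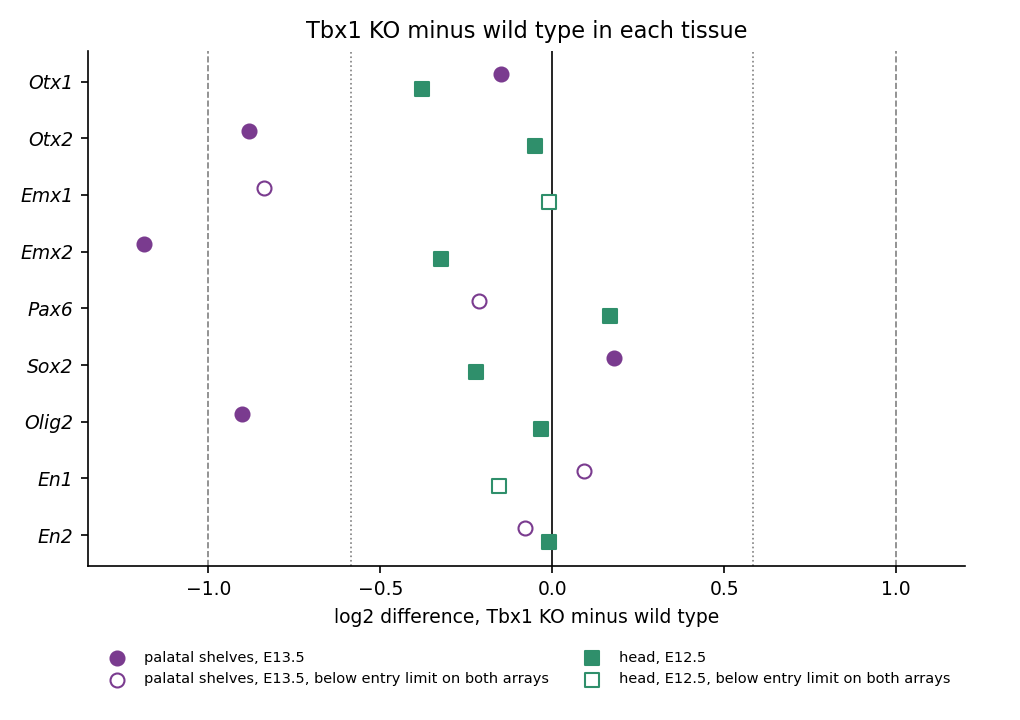
Log2 difference, Tbx1 KO minus wild type (x axis), of the 9 factors in the palatal shelves (circles, E13.5) and the head (squares, E12.5), with 1 array per group and no error bars; open symbols lie below the limit for entry on both arrays, and dotted and dashed lines mark 1.5-fold and 2-fold. Emx2 (-1.19), Olig2 (-0.90) and Otx2 (-0.88) lie left of the 1.5-fold line in the shelves, and all 7 filled squares of the head lie between both 1.5-fold lines.

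In the E12.5 head, none of the factors differed by 1.5-fold. Of the 9 factors, 7 entered, and 0 were at least 1.5-fold lower or higher, where 0.352% of 11364 genes were lower and 0.106% higher. At 2-fold the factors again numbered 0, beside 0.0528% of all genes lower and 0.0352% higher. The median difference of the 7 was -0.050, beside -0.017 over all genes, and 6 of 7 lay below 0, beside 55.5% of all genes. Otx1 had the largest difference of the 7, at 8.81 in KO head and 9.19 in wild-type head, which is -0.38 or 1.30-fold lower and the 162nd lowest of all genes. Emx2 followed with -0.32, the 272nd lowest, and both fell outside the 5th to 95th percentile of all genes (-0.25 to 0.23). Sox2 was at 9.64 in KO head, against 9.87 in wild-type head, and Pax6 at 8.28 in KO head, against 8.11 in wild-type head. En2 was at 6.51 in KO head and 6.52 in wild-type head. En1 was at 5.23 in KO head and 5.38 in wild-type head, below the limit on both arrays.

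The KO minus wild-type difference of Emx2, Otx2 and Olig2 was lower in the shelves than in the head by similar amounts. The shelf difference minus the head difference was -0.86 for Emx2, -0.83 for Otx2 and -0.87 for Olig2. It was 0.23 for Otx1 and 0.40 for Sox2. Emx1, below the limit on all 4 arrays, had -0.83. Of the 5 factors that entered both pairs, 3 had a lower difference in the shelves, as did 40.8% of the 10814 genes that entered both. These contrasts use all 4 arrays and could not be tested, because an interaction leaves no residual degree of freedom.

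Over both tissues, no factor passed for genotype. The additive limma fit set 2 KO against 2 wild-type arrays and held tissue as a second term, with 1 residual degree of freedom and a prior of 5.49 degrees of freedom from all 11999 genes. Emx2 had a log2 difference of -0.75 (SE 0.20), with a two-sided limma p of 0.0073 and an adjusted p of 0.919. Olig2 (-0.47, SE 0.20), Otx2 (-0.47, SE 0.19) and Otx1 (-0.26, SE 0.11) had the same limma adjusted p of 0.919. No gene of all 11999 passed, the smallest limma adjusted p was 0.172, and 5.23% of genes had an unadjusted p under 0.05. With 1 common variance for all genes and no eBayes, Emx2 passed in an ordinary t-test with an adjusted p of 0.000118, beside 0.919 with the moderated limma variance. That t-test counts the residuals of all 11999 genes as independent degrees of freedom. The fit assumes an equal effect in both tissues, whereas the differences of Emx2, Otx2 and Olig2 were unequal in the pairs.

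Between the tissues, most of the brain factors were lower in the shelves than in the head. Of the 5 factors above the limit on at least 1 array of each tissue, 4 were lower after adjustment, where 14.9% of the 11999 genes in the fit were, and 0 were higher, where 13% were. The median shelves minus head difference of the 5 was -1.12, beside -0.020 over all genes. These values for all genes include genes that entered through 1 tissue alone. Values for only the genes that entered in both tissues were not computed. Pax6 and En2 entered through the head arrays alone, so they could hardly fail to be lower in the shelves, and their differences are given as a description without a test. Stage and tissue changed together, so E13.5 against E12.5 and shelves against head cannot be told apart.

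Otx1 fell by 1.21 on the log2 scale (SE 0.11, limma adjusted p = 0.000502), and its level was lower on both shelf arrays than on both head arrays. Pax6, dim on both shelf arrays and at 8.28 in KO head and 8.11 in wild-type head, had shelves minus head differences of -2.46 in KO and -2.08 in wild type. Those of En2 were -1.87 in KO and -1.80 in wild type.

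Emx2 fell by 1.59 (SE 0.20, limma adjusted p = 0.00172) and Otx2 by 1.12 (SE 0.19, limma adjusted p = 0.00619). Olig2 fell by 0.93 (SE 0.20, limma adjusted p = 0.0146), a call that was lost with robust eBayes (adjusted p = 0.0684) and with quantile normalization again (adjusted p = 0.0529). For these 3 the genotypes were further apart: the shelves minus head difference was -2.02 in KO and -1.15 in wild type for Emx2, -1.54 in KO and -0.71 in wild type for Otx2, and -1.36 in KO and -0.50 in wild type for Olig2. Sox2 was the exception to the tissue difference, with -0.073 (SE 0.13, limma adjusted p = 0.706), 0.13 in KO and -0.27 in wild type. Emx1 and En1, below the limit on all 4 arrays, were below their head levels in both genotypes, with differences of -1.33 in KO and -0.50 in wild type for Emx1 and of -0.50 in KO and -0.74 in wild type for En1.

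**Figure D3:**
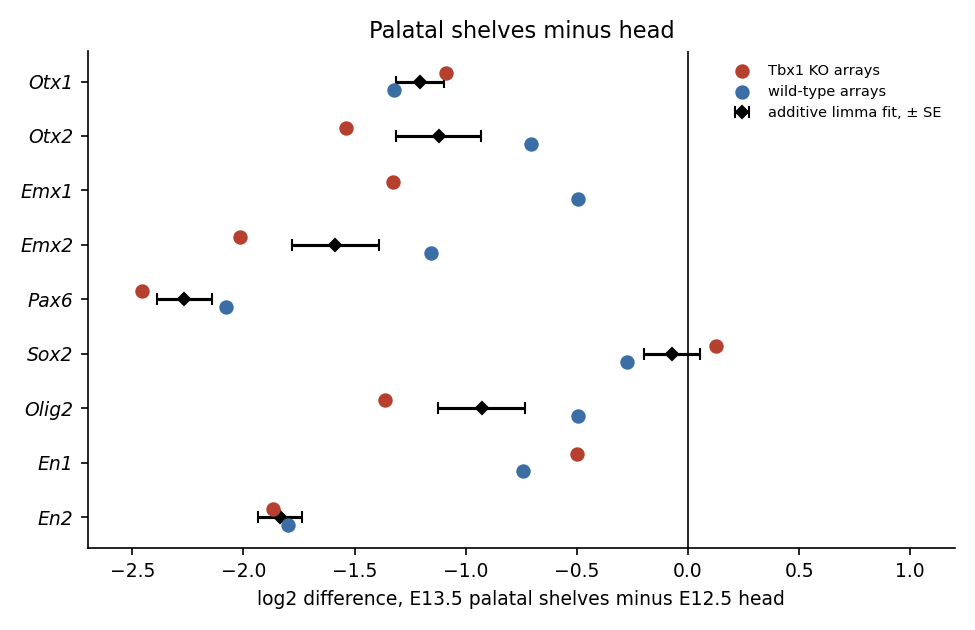
Log2 difference, E13.5 palatal shelves minus E12.5 head (x axis), of the 9 factors in the KO arrays (red) and the wild-type arrays (blue), with the additive limma estimate and its SE as black diamonds; Emx1 and En1 were not in the fit. The genotypes lie closer together for Pax6, En2 and Otx1 than for Emx1, Emx2, Otx2 and Olig2. KO lies left of wild type for Emx1, Emx2, Otx2, Olig2, Pax6 and En2, and right of it for Otx1, Sox2 and En1. Sox2 lies near 0.

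Beside Emx2, Otx2 and Olig2, some other factors of the olfactory placode and several genes of the nasal lining were lower in KO shelves, while several neuronal genes were higher. Since a gene below the limit on 1 array entered only where the other array was high, counts are also given for genes above the limit on both arrays, a choice made after seeing the data. Of the 10686 such genes, 0.618% were at least 1.5-fold lower in KO shelves and 1.05% higher. Apart from the factors described above, 3 of 14 olfactory placode factors that entered were at least 1.5-fold lower in KO shelves, beside 1.34% of all genes that entered. None was higher, beside 1.91%, and 11 lay below 0, beside 44.8%, with a median of -0.12. Of the 12 above the limit on both arrays, 2 were at least 1.5-fold lower and 0 higher, also with a median of -0.12. Lhx2, a LIM homeodomain factor of forebrain and olfactory neurons, was at 7.79 in KO shelves and 8.52 in wild-type shelves. Dlx6, a homeodomain factor of placodes and pharyngeal arches, was at 6.35 in KO shelves and 6.98 in wild-type shelves. The remaining gene of the 3 was Ebf2 (-0.63), below the limit in KO shelves and named after its values were seen. Lhx2 is also on the lists of nasal epithelium and telencephalic genes. In the head, 0 of 14 reached 1.5-fold, and the median was -0.14.

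Genes of differentiated olfactory and nasal epithelium were lower in part in KO shelves. Of 10 that entered, 7 were at least 1.5-fold lower, beside 1.34% of all genes, and 6 at least 2-fold lower, beside 0.472%. None was at least 1.5-fold higher, beside 1.91%, and the median was -1.28. Of the 7, 4 were below the limit in KO shelves and entered through the wild-type array, and of the 6 genes above the limit on both arrays 3 were at least 1.5-fold lower, with a median of -0.37. Cyp2g1, a cytochrome P450 of the olfactory mucosa, was at 5.39 in KO shelves and 9.56 in wild-type shelves. The mean log2 level over the 19 genes measured was 5.54 in KO shelves and 6.61 in wild-type shelves, with 13 of them below the limit in KO and 9 in wild type. Omp, the marker of mature olfactory neurons, was below the limit on both shelf arrays (5.40 in KO and 5.61 in wild type). Other genes of the list differed more: Gng8 was at 6.91 in KO shelves and 8.13 in wild-type shelves. Gap43 went the other way, at 8.25 in KO shelves and 7.92 in wild-type shelves. Of the 10 genes that entered, 8 lay below 0 and 2 above it. How much of the olfactory lining each dissection held, and its part in the levels of Emx2, Otx2 and Olig2, was not tested. In the head 6 of these genes entered, 0 reached 1.5-fold and the median was 0.046.

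Brain genes went several ways in the KO shelves. Of all genes that entered there, 1.91% were at least 1.5-fold higher and 1.34% lower. Of 9 ventral forebrain, hypothalamus and eye field factors above the limit, 4 were higher by 1.5-fold or more and 0 lower, with a median of 0.58. The 4 were below the limit in wild-type shelves and entered through the KO array. Six6, a factor of hypothalamus, pituitary and retina, was at 6.85 in KO shelves and 5.68 in wild-type shelves, and Nkx2-1, a factor of the ventral forebrain, at 6.27 in KO shelves and 5.33 in wild-type shelves. Of 18 neuron genes, 9 were at least 1.5-fold higher and 1 lower, with a median of 0.60. Of the 9, 4 were below the limit in wild-type shelves and entered through the KO array, and of the 12 neuron genes above the limit on both arrays 5 were higher and 1 lower, with a median of 0.52. Of 14 general neural progenitor genes, 2 were higher and 0 lower, with a median of 0.089. The 2 were Zic1, a zinc finger factor of the dorsal neural tube (7.49 in KO shelves and 5.70 in wild-type shelves), and Sox1, a SOX factor of early neural tissue and lens (6.58 in KO shelves and 5.44 in wild-type shelves), both below the limit in wild type. Sox1 and Sox2, members of the same subfamily, had shelf differences of 1.15 and 0.18.

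Other telencephalic factors had a median of 0.14, with 2 of 9 at least 1.5-fold lower and 0 higher. The 2 were Lhx2 and Neurog1, a proneural factor of sensory placodes and olfactory neurons (5.48 in KO shelves, below the limit, and 6.18 in wild-type shelves). Factors of the midbrain and its boundary to the hindbrain, the region of En1 and En2, had 0 of 8 beyond 1.5-fold and a median of 0.058. Of the hindbrain and ventral neural tube factors, 1 entered, Olig1, which was below the limit in KO shelves. Of 7 glial and oligodendrocyte lineage genes 1 was lower, the water channel gene Aqp4 (-0.75, below the limit in KO shelves), and 1 higher, the proteoglycan gene Cspg4 (0.68). The 2 lens and retina genes that entered lay between -0.15 and 0.52.

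Palatal mesenchyme markers (0 of 14 beyond 1.5-fold, median 0.13) and oral epithelium markers (0 of 12, median -0.12) stayed within 1.5-fold, whereas other groups differed along with genotype. Of all genes that entered in the shelves, 1.91% were at least 1.5-fold higher and 1.34% lower. Hypoxia-responsive genes were at least 1.5-fold higher in 7 of 10, with a median of 0.87 and mean log2 levels of 8.25 in KO shelves and 7.44 in wild-type shelves, and all 10 were above the limit on both arrays. Skeletal muscle genes were at least 1.5-fold lower in 11 of 12, with a median of -1.21 and mean log2 levels of 5.95 in KO shelves and 6.93 in wild-type shelves. Of the 11, 7 were below the limit in KO shelves and entered through the wild-type array, and of the 5 above it on both arrays 4 were lower, with a median of -1.12. The part of these shifts in the levels of the brain factors was not tested.

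**Figure D4:**
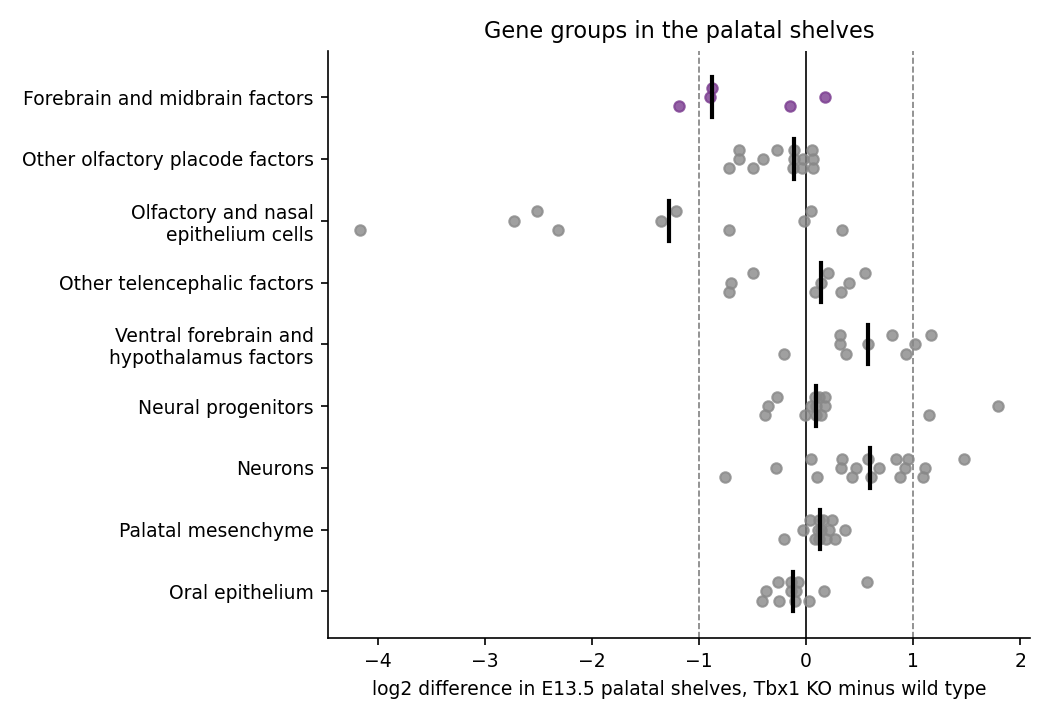
Log2 difference in the E13.5 palatal shelves, Tbx1 KO minus wild type (x axis), of the genes of 9 groups that entered, 1 point per gene with the group's median as a black bar; points are spread vertically for legibility, dashed lines mark 2-fold, and groups below the first leave out the 9 factors. The factors (median -0.88) and the olfactory and nasal epithelium genes (median -1.28) lie mostly left of 0, and neurons (median 0.60) mostly right of it.

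The genes most like Emx2, Otx2 and Olig2 over the arrays were found by the Euclidean distance over 3 log2 differences (KO minus wild type in shelves and in head, and wild-type shelves minus wild-type head) among 10814 genes that entered both pairs. Nearest to Emx2 was Nhlh1, a basic helix-loop-helix gene of young neurons (distance 0.213), with a shelf difference of -1.02 and a head difference of -0.31. Chrna3, a nicotinic receptor subunit gene, and Uncx, a homeodomain factor gene, came next (0.413 and 0.434). Nearest to Otx2 was Olig2 (0.212), followed by Neurog1 (0.225) and the ion channel gene Asic4 (0.345). Nearest to Olig2 after Otx2 were the smooth muscle actin gene Acta2 (0.216) and Asic4 (0.234). Likeness over 4 arrays is a description and carries no test.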

How the data were processed

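RNA of 4 mouse embryo samples was read on Affymetrix Mouse Gene 2.0 ST arrays, 1 per group, with groups taken from the sample titles; 1 other label field also calls the E13.5 samples heads. The authors deposited RMA values on the log2 scale, 1 per transcript cluster, from Affymetrix Expression Console according to the submitters' processing notes. In the sources used here, its version and the genome build are not given. RMA sets arrays to 1 common distribution and compresses folds of dim genes.

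Of 41345 clusters, 23521 had 1 gene symbol in the platform annotation. Clusters of a gene were averaged, which gave 22180 genes, and a cluster listed for Pax6 together with Elp4 was not used. Differences are KO minus wild type, counted from 1.5-fold and 2-fold without a test. The additive fit used limma 3.58.1 (lmFit, eBayes) in R 4.3.3 with Benjamini-Hochberg adjustment over all 11999 genes that entered, and calls at an adjusted p under 0.05. Tested on simulated data with known changes, it recovered most of them, but in most runs the share of false calls exceeded the adjusted threshold. P-values of the fit rest on 1 residual degree of freedom, moderated by a prior from all genes. That residual is how far the KO minus wild-type difference of a gene is unequal in the 2 tissues. It measures no spread between embryos. Array depth is not defined.

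The 9 factors and 15 context gene lists were chosen with earlier results of these data known. The text names the 9 factors, Tbx1, a selection of up to 4 genes per list with the largest absolute difference in the shelves and up to 2 in the head, and the 3 nearest genes of each factor at least 1.5-fold different, leaving out predicted genes. Ebf2, Omp, Gng8 and Gap43 were named outside this rule. Some list genes were not analysed here. Alternatives were 3 normalizations, the brightest cluster, 2 other filters, 1.5-fold and 3-fold counts, a mean-variance trend in the prior, robust eBayes, and 1 common variance without eBayes. Counts of genes bright in both arrays were added after seeing the data.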

Additional observations from a re-analysis of the deposited data

Results flagged for a closer look

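Sox2 was the 1 factor above the limit in both tissues whose KO minus wild-type difference had opposite signs, at 0.18 in the palatal shelves and -0.22 in the head. Of all genes that entered both pairs, 48.7% had opposite signs, and the difference between the tissues was not tested. Both values are close to the probe-set disagreement of each pair (0.226 in the shelves and 0.176 in the head). With 1 array per group, no sample could be set against others of its own group.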

How the results depend on the processing

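The KO minus wild-type differences of the single factors kept their sign and moved by less than the probe-set disagreement under the 3 normalizations. The brightest cluster and the 2 other filters could not change them. Each factor was read by 1 transcript cluster, and a filter only decides which genes enter. In the shelves, Emx2 ranged from -1.23 to -1.17, Olig2 from -0.97 to -0.88 and Otx2 from -0.95 to -0.87. What changed was which factors entered. An upper-quartile filter (7.79) left Otx1 and Sox2, with 0 factors lower by 2-fold or by 1.5-fold and a median that turned to 0.016. No filter gave a median of -0.21 over all 9. Requiring both arrays to be bright left out Emx2, with 0 factors at least 2-fold lower and a median of -0.51. Counted from 1.5-fold 3 factors were lower, and from 3-fold 0 were. For tissue, 6 factors were lower in the main fit and 5 to 8 under the alternatives. Of all genes, 1787 of 11999 were lower in the main fit and 1360 of 22180 with no filter. Each count of factors includes Pax6, and all but that of the upper-quartile filter include En2. Both were dim on the shelf arrays and could hardly fail to be lower, so these counts are a description. The 8 with no filter add Emx1 and En1, dim on every array. Of the 5 with the upper-quartile filter, only Otx1 reached that limit in the shelves. This filter lowered the count of all genes higher in the shelves to 1029, against 1555, because fewer genes were tested. For genotype, a mean-variance trend gave 10 genes lower and 1 higher, and 1 common variance gave 68 lower and 82 higher, with 1 factor (Emx2) among the lower ones. No paired analysis was possible because the labels give no replicate numbers and each group holds 1 array, and leaving out an array would remove a whole group. Dim signal limits Emx1, En1 and, in the shelves, Pax6 and En2.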
